A study of Mus musculus with 18 samples.

Results

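The core pluripotency regulators described here are 6 mouse genes, Pou5f1, Nanog, Sox2, Sall4, Lin28a and Utf1, followed through a chemical reprogramming course that starts from fibroblasts. They were chosen by name: the Ensembl identifiers of the deposited expression values were matched to gene symbols, and all 6 were found among 55401 genes. Each was among the 16439 genes tested, and the whole set is accounted for below. RNA was sequenced in 18 libraries of 9 groups, 2 libraries a group. The fibroblasts before treatment (D0) were MEF at passages 1 to 3 from E13.5 embryos of a 129 and OG2 cross, kept in DMEM with 10% FBS; OG2 mice carry a green fluorescent reporter driven by Pou5f1 regulatory sequence. Groups D2, D4, D6, D8, D10 and D12 were the same kind of cells after 2 to 12 days in a reprogramming medium whose components are not given in the sources used here. The riPSC group was an induced pluripotent stem cell line made from MEF, and the mESC group was R1, an embryonic stem cell line from a mouse blastocyst, which does not share the OG2 background. Both stem cell groups grew on feeder cells in N2B27 with LIF, CHIR99021 (a GSK3 inhibitor) and PD0325901 (a MEK inhibitor). The labels name no clone for riPSC and do not say whether the 2 libraries of a group came from separate cultures, so each p-value reflects only how far these libraries differ, which may be technical.

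Pluripotent cells of the early embryo and stem cells made from it depend on a small set of transcription factors that bind their own and one another's regulatory regions. Pou5f1 encodes OCT4, a POU-domain factor that binds an octamer motif, often beside SOX2, an HMG-box factor that binds a SOX motif. Nanog is a homeodomain factor, and Sall4 is a zinc finger factor that can recruit the NuRD co-repressor complex. Utf1 is a chromatin-bound protein of undifferentiated cells whose gene is a known target of the OCT4 and SOX2 pair. Lin28a is an RNA-binding protein that blocks the maturation of let-7 microRNAs and was one of the factors first used to reprogram human cells.

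The values are FPKM, a fragment number divided by transcript length and by the fragments mapped in that library, so they compare genes per length within a library. Levels are printed for replicate 1 and then replicate 2. Differences are on the scale of log2(FPKM + 1), with the standard error from limma over all 18 libraries. A member was called, and is said to rise or fall, at a Benjamini-Hochberg adjusted p under 0.05 over all genes tested together with a log2 difference of at least 1. That limit is also written as 2-fold, always on the scale of log2(FPKM + 1). For a gene near 0 FPKM a difference under it can still be a larger ratio of FPKM. A gene listed at 0 may be one the quantification failed to estimate, and where both libraries of a group were listed at 0 no fold against it is printed. In these bulk samples fewer cells of a type and less RNA per cell cannot be told apart.

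The 2 D2 libraries were not independent. Of 20906 genes above 0 in D2 replicate 1, 0 were listed at 0 in replicate 2, and in 1986 of them the second value was 0.2 of the first (to 4 decimals of the ratio). 0 genes lay below that ratio. Between any 2 libraries outside this pair at most 23 genes shared 1 ratio, and at least 208 genes of the first library were at 0 in the second. The values of D2 replicate 2 thus equal 0.2 of replicate 1 plus a non-negative remainder. The called differences of Sox2 and Sall4 that use D2 are given with and without that library. Shares of all genes and marker sums at D2 use both libraries. The smallest step of values in single-exon genes, worth a read or a read pair, gave a depth of 32.9 to 49.0 M steps in 17 libraries, or 0.0102 to 0.0152 FPKM for a single step in a gene of 2 kb. In D2 replicate 2 it gave 245 M, 5 times that of replicate 1, which is no measure of depth in a library made up in this way. The median absolute difference between replicates over all genes tested on the log2 scale was largest in D0 (0.28), D2 (0.243) and D4 (0.184), and 0.0897 to 0.141 elsewhere. Weighted by exonic length, mitochondrial transcripts held 18.2% to 18.6% of the FPKM sum in D12 and 3.91% to 4.18% in riPSC, which bears on levels set between these groups.

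On mm10 the members lie on 6 chromosomes. Pou5f1 (ENSMUSG00000024406) spans chr17:35506018-35510772 on the forward strand, Nanog (ENSMUSG00000012396) chr6:122707489-122714633 forward, Sox2 (ENSMUSG00000074637) chr3:34650405-34652461 forward, Sall4 (ENSMUSG00000027547) chr2:168748332-168767943 reverse, Lin28a (ENSMUSG00000050966) chr4:134003330-134018841 reverse and Utf1 (ENSMUSG00000047751) chr7:139943789-139945112 forward. All are protein-coding, and Sox2 consists of a single exon. Similar or overlapping genes were low: Pou5f2 reached 0.104 FPKM in any library, Nanog-ps1 0.0758 and Nanog-ps2 0. Of the overlapping transcripts, Sox2ot reached 0.452, Gm19553, antisense to Pou5f1, 1.15, Gm14261 at Sall4 0.17 and Gm13061 at Lin28a 0.0483. Whether counting used strand is not given in the sources used here, so reads of a member and of an overlapping transcript may not be told apart.

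RefSeq sequence before the annotated start was present for 5 of the 6 members (GRCm38.p6), Sall4 being the exception. The 4 windows printed are those of Pou5f1 and Lin28a, which rose at D8, and of Nanog and Sox2, which stayed low through D12. Utf1 also stayed low through D12, and its window was searched but is not printed. Each runs 5′ to 3′ on the gene's strand and was shortened where needed to end before the first annotated exon. For Pou5f1 and Nanog, with 2 RefSeq starts each, the one farthest upstream was used, and the Sox2 window precedes a RefSeq start that lies upstream of the gene span given above. Capitals mark matches, on either strand, to an octamer core, ATGCAAA, or a SOX core, CATTGT.
Pou5f1, chr17:35505782-35506017: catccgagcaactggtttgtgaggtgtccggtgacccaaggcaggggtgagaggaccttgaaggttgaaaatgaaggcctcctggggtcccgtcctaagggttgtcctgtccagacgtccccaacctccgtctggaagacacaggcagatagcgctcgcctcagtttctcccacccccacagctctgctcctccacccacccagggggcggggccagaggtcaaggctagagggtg
Nanog, chr6:122707239-122707488: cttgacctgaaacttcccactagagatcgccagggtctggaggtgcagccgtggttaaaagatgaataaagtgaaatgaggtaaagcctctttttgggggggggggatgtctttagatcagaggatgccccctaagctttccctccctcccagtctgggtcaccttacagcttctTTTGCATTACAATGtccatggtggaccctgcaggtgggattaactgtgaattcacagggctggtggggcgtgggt
Sox2, chr3:34649745-34649994: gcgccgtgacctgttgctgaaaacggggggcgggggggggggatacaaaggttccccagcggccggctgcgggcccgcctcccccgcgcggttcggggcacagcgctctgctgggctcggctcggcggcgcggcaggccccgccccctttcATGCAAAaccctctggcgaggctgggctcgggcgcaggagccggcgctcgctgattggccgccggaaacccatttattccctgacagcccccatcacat
Lin28a, chr4:134018842-134019066: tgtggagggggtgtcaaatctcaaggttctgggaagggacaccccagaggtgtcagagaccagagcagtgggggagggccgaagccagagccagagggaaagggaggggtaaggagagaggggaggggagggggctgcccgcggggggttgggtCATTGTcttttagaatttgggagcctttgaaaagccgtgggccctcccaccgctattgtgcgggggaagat
The Nanog window held both cores side by side on the reverse strand, as a composite of CATTGT, 1 base and ATGCAA, whose match began 74 bases before the start (chr6:122707415-122707427). The octamer core occurred in 4.12% and the SOX core in 10.7% of 32851 full RefSeq windows of 250 bases before the start, and the composite in 4 of them; the shortened windows of Pou5f1 (236 bases), Lin28a (225) and Utf1 (183) offered fewer places for a match. Sox2 had an octamer core at chr3:34649896-34649902 and Lin28a a SOX core at chr4:134018907-134018912. Pou5f1 and Utf1 (chr7:139943606-139943788) had no match to these letters in their windows. A match describes sequence only, and binding was not measured here.

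Pou5f1 was the member that moved most during the course. It was listed at 0 in both libraries of D0 and of D2, at 0 and 0.0322 FPKM in D4, and at 0.0576 and 0 in D6. At D8 it stood at 44.9 and 45.4 FPKM. The level then climbed without overlap between groups, to 121 and 128 FPKM at D10 and 528 and 558 FPKM at D12, against 910 and 970 in riPSC and 855 and 941 in mESC. The rise from D6 to D8 was 5.49 ± 0.09 (limma, adjusted p = 1.91e-12). From D8 to D10 the log2 difference was 1.45 ± 0.09 (adjusted p = 1.50e-06) and from D10 to D12 it was 2.11 ± 0.09 (adjusted p = 4.43e-09). Pou5f1 thus rose at each of the last 3 steps, and at D12 its mean was 57.7% of that in riPSC.

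**Figure D1:**
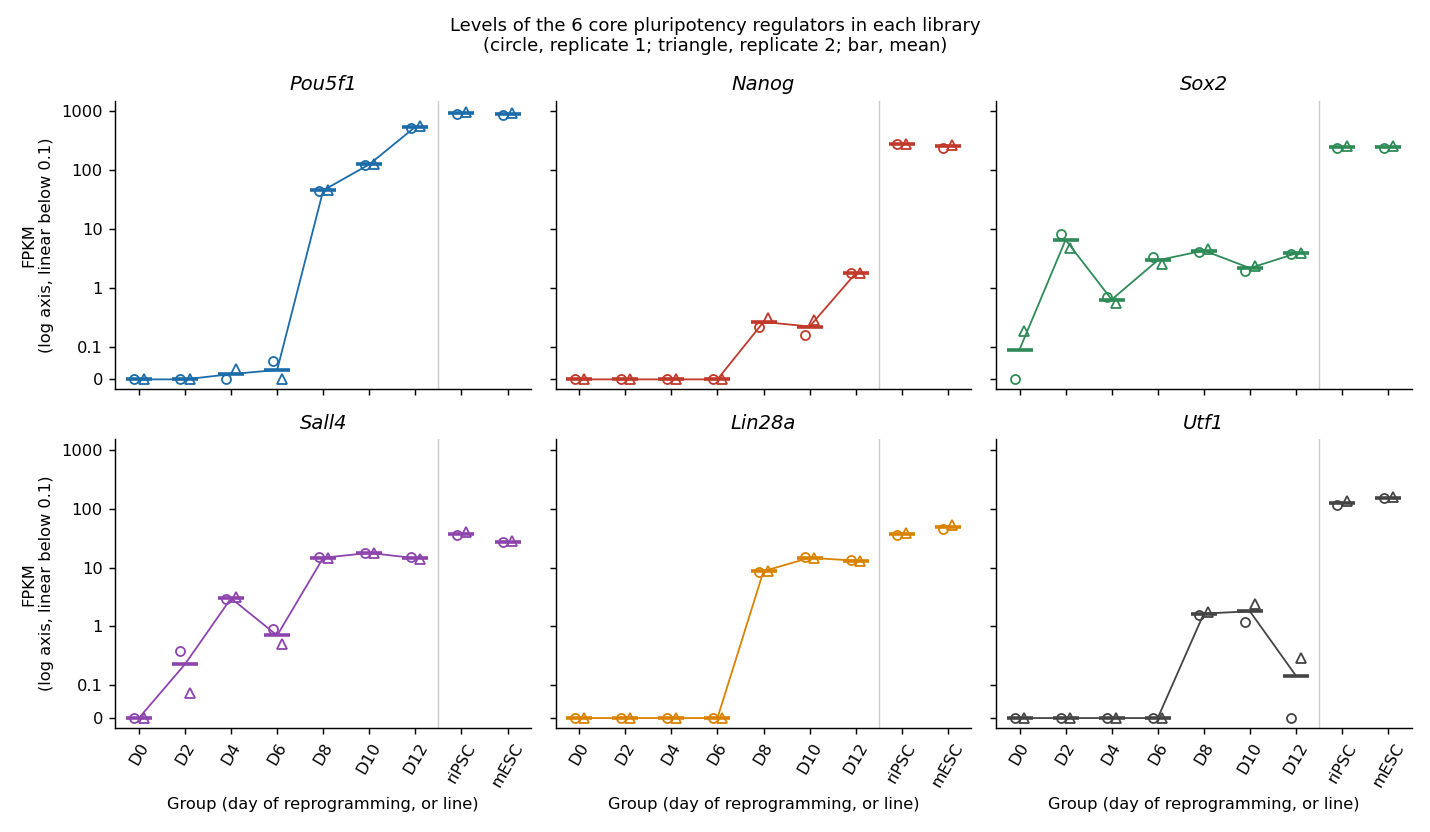
FPKM of each regulator in every library, by group, on a log axis that is linear below 0.1; circles are replicate 1, triangles replicate 2 and bars the mean of the 2, with lines joining the time points. Pou5f1 climbs from 45.1 at D8 to 543 at D12, while Nanog, Sox2 and Utf1 stay under 10 FPKM in every library of the course and exceed 100 in both stem cell groups.

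Sall4, the zinc finger factor, appeared before Pou5f1. It was listed at 0 in both D0 libraries and at 0.381 and 0.0762 FPKM in D2, the second of which is 0.2 of the first, so the remainder of that library held 0. At D4 it was 2.89 and 3.14 FPKM, and at D6 0.897 and 0.512. The D4 values lay above those of D2 and D6 with no overlap: the log2 difference was 1.72 ± 0.14 from D2 to D4 (limma, adjusted p = 2.29e-06) and -1.24 ± 0.14 from D4 to D6 (adjusted p = 1.38e-05). With D2 replicate 1 alone the first of these was 1.54, given without a p-value because D2 then adds no spread to the fit. With the remainder in place of replicate 2 it was 1.77 (adjusted p = 5.86e-06). Fitted on only the 4 libraries compared, the step from D2 to D4 missed the threshold (adjusted p = 0.0563).

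At D8 Sall4 reached 15.1 and 14.3 FPKM, a rise of 3.21 ± 0.14 over D6 (limma, adjusted p = 1.46e-09). It then stayed near that level, at 17.5 and 18.02 FPKM in D10 and 15.0 and 13.9 in D12. Neither later step was called, and the difference between D12 and D8 was -0.02 with a 95% interval of -0.32 to 0.27. The riPSC libraries held 35.1 and 40.0 FPKM and the mESC libraries 27.2 and 28.0. Sall4 at D8 was already 39.1% of its riPSC mean, while Pou5f1 was at 4.80%.

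Lin28a, the let-7 antagonist, was listed at 0 in all 8 libraries from D0 to D6. It stood at 8.49 and 8.92 FPKM in D8, 15.0 and 14.3 in D10 and 13.5 and 12.7 in D12. Stem cells held more, 36.4 and 38.1 FPKM in riPSC and 45.5 and 52.4 in mESC. D8 was above D6 (limma, adjusted p = 4.97e-11, with D6 at 0). The step from D8 to D10, 0.69 ± 0.09, passed the adjusted p (3.98e-04) but not the 2-fold limit, and from D10 to D12 the difference was -0.15 ± 0.09 (adjusted p = 0.25). At D12 the mean was 35.3% of that in riPSC.

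Nanog, the homeodomain factor, was listed at 0 in the same 8 early libraries. It was 0.217 and 0.308 FPKM at D8, 0.16 and 0.28 at D10, and 1.76 and 1.76 at D12. Those D12 values exceeded all earlier ones but were far from riPSC, at 273 and 275 FPKM, and mESC, at 240 and 267. The step from D10 to D12 was called, at 1.18 ± 0.09 (limma, adjusted p = 8.49e-07). The step from D6 to D8, 0.34 ± 0.09, had an adjusted p of 0.00723 and was under the limit of 1, with D6 at 0. With a pseudocount of 5 the step from D10 to D12 was 0.37 (adjusted p = 7.70e-05), also under 1, because that scale compresses low values. At D12 Nanog had 0.644% of its riPSC level.

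Sox2, the partner of OCT4, was the only member with its highest value of the course at D2. It was listed at 0 and 0.182 FPKM in D0, 8.26 and 4.79 in D2, and 0.708 and 0.554 in D4. The remainder of D2 replicate 2 held 3.93 FPKM, so both parts of the D2 data exceeded every D0 and D4 library. Sox2 rose by 2.75 ± 0.19 from D0 to D2 (limma, adjusted p = 3.21e-07), and the log2 difference from D2 to D4 was -2.17 ± 0.19 (adjusted p = 4.89e-06). With D2 replicate 1 alone these were 3.09 and -2.51, given without p-values because D2 then adds no spread to the fit. With the remainder in place of replicate 2 they were 2.64 (adjusted p = 3.93e-06) and -2.05 (adjusted p = 4.78e-05). Fitted on only the libraries compared, neither passed (adjusted p = 0.0843 and 0.0726). Neural markers, which include genes expressed beside Sox2 in neural cells, summed to 11.4 to 14.7 FPKM in D0, 25.1 to 32.2 in D2 and 20.8 to 26.1 in D4. Most of this was Tubb3, a neuronal tubulin, at 27.6 and 22.4 FPKM in D2. In D2, 2 of the 7 were at 1 FPKM or more in both libraries and Pax6 was at 0 in both; their part in the Sox2 values was not tested.

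After D4 Sox2 moved within a narrow band. It was 3.30 and 2.55 FPKM in D6, 4.03 and 4.57 in D8, 1.94 and 2.38 in D10 and 3.80 and 3.86 in D12. Against D0, D6 was higher by 1.85 ± 0.19 (limma, adjusted p = 3.33e-06), and the step from D4 to D6 was 1.26 ± 0.19 (adjusted p = 1.67e-04). The later steps alternated in sign and were under 2-fold: 0.44 ± 0.19 to D8 (adjusted p = 0.0662), -0.75 ± 0.19 to D10 (adjusted p = 0.0244) and 0.62 ± 0.19 to D12 (adjusted p = 0.0237). riPSC held 234 and 257 FPKM and mESC 234 and 258. Sox2 at D12 was 1.56% of its riPSC mean.

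Utf1 was the one member that fell between D10 and D12. It was listed at 0 from D0 to D6, at 1.55 and 1.76 FPKM in D8, 1.18 and 2.44 in D10, and 0 and 0.291 in D12. Both D12 libraries lay below all 4 of D8 and D10. D8 was above D6 (limma, adjusted p = 2.96e-05, with D6 at 0), and the log2 difference was -1.27 ± 0.18 from D10 to D12 (adjusted p = 1.68e-04) and -1.22 ± 0.18 from D8 to D12 (adjusted p = 1.48e-04). Without D10 replicate 2 the first was -0.94, and with quantile normalization the second was -0.93 (adjusted p = 4.73e-04), both under 1 in size. In FPKM, the D12 mean was 0.0804 of the D10 mean and 0.0878 of the D8 mean. A pseudocount of 5 ended all 3 calls, at 0.41 from D6 to D8 (adjusted p = 0.00134), -0.40 from D10 to D12 (0.00314) and -0.37 from D8 to D12 (0.00372). riPSC stood at 116 and 136 FPKM and mESC at 151 and 159, so D12 held 0.115% of the riPSC level.

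By step, the only members called before D8 were Sox2 and Sall4. From D0 to D2, 1 of 6 rose (Sox2), beside 19.5% of all genes tested. From D2 to D4, 1 rose (Sall4; 5.66% of all genes) and 1 fell (Sox2; 4.48%). From D4 to D6 the 2 exchanged places, Sox2 rising (11.6% of all genes) and Sall4 falling (6.86%). Over the first 6 days as a whole 1 of 6 rose, Sox2, where 32.8% of all genes did. Sall4, listed at 0 in D0, differed by 0.76 in that comparison (limma, adjusted p = 2.79e-04), under the limit of 1. It was called (1.27, adjusted p = 3.38e-05) when each library was scaled to its genes outside the mitochondrial genome.

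From D6 to D8, 4 of 6 rose (Pou5f1, Sall4, Lin28a and Utf1) and 0 fell, against 15.1% and 11.3% of all genes. The members' median log2 difference was 2.31, and that of all genes tested 0.08. From D8 to D10 only Pou5f1 rose, 1 of 6, where 0.426% of all genes did. From D10 to D12, 2 rose (Pou5f1 and Nanog; 6.01% of all genes) and 1 fell (Utf1; 4.68%). Over D8 to D12 the same members were called, 2 higher (7.34% of all genes) and 1 lower (9.22%). The members' median difference over D8 to D12 was 0.26, and that of all genes -0.08.

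**Figure D2:**
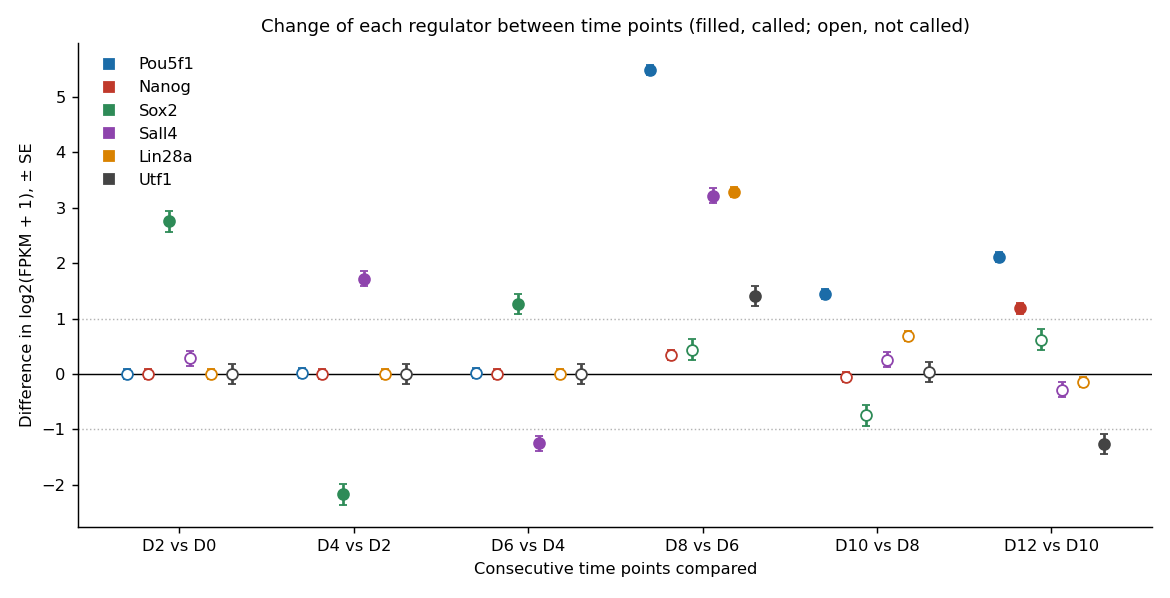
Difference in log2(FPKM + 1) between consecutive time points for each regulator, with the standard error from limma. Filled circles were called, open ones were not, and dotted lines mark a difference of 1 on this scale in either direction. Sox2 and Sall4 move in opposite directions from D2 to D4 and from D4 to D6, 4 members rise at D8, and Pou5f1 is the only member called at all of the last 3 steps.

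Marker genes of other lineages moved at the same steps. Extraembryonic endoderm markers (13 genes, Gata4, Gata6 and Sox17 among them) summed to 203 to 218 FPKM in D6, 1251 to 1337 in D8, 2624 to 2669 in D12 and 22.1 to 24.4 in riPSC. All 13 were at 1 FPKM or more in both D8 libraries and 12 in both D12 libraries, none being at 0 in either group. Basement membrane genes that many cells express carried most of the D12 sum, with means of 1057 FPKM for Col4a1, 662 for Lamb1 and 449 for Lama1. From D8 to D12 Gata6 went from 35.4 to 86.1, Gata4 from 113 to 120, Sox17 from 124 to 106 and Sox7 from 22.8 to 3.43. Trophoblast markers (8 genes) summed to 57.3 to 58.2 FPKM in D6, 432 to 436 in D8, 463 to 471 in D12 and 38.8 to 41.6 in riPSC; 6 of 8 were at 1 FPKM or more at D8 and at D12, Hand1 was at 0 in D12, and Cdx2 and Hand1 in riPSC. Krt8 (218 FPKM on average) and Krt18 (182), keratins of simple epithelia, made up most of the D8 sum. The other genes differed in course. Mean Cdx2 went from 0.0895 in D6 to 20.1 in D8 and 21.8 in D12, and Eomes from 1.29 to 3.46 and 8.07. Gata3 went from 0.939 in D6 to 0.795 in D8 and 11.8 in D12. Tfap2c went from 15.7 in D6 to 3.69 in D8 and 2.42 in D12, and Elf5 from 0.0468 to 5.44 and 0.981. Fibroblast markers (10 genes) summed to 2808 to 2813 FPKM in D6, 514 to 517 in D8, 332 to 347 in D10 and 752 to 769 in D12, with none at 0. From D10 to D12, 4 of the 10 rose and 1 fell, beside 6.01% and 4.68% of all genes. Most of the gain in the sum was in collagens. Mean Col1a1 went from 97.2 to 211 FPKM, Col1a2 from 48.8 to 150 and Col3a1 from 76.3 to 252. Thy1 went from 21.0 to 6.90, Fbln2 from 33.0 to 27.4 and S100a4 from 2.01 to 0.956. In the feeder-grown stem cells the fibroblast markers summed to 108 to 113 in riPSC and 188 to 204 in mESC. The part of these changes in the members' levels was not tested.

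At D12 the members split into 3 levels of approach to riPSC. Pou5f1 stood at 57.7%, Sall4 and Lin28a at 38.4% and 35.3%, and Sox2, Nanog and Utf1 at 1.56%, 0.644% and 0.115%. In riPSC 6 of 6 were higher than in D0, where 40.1% of all genes were. D8 was below riPSC in 6 of 6, against 15.0% of all genes. D12 was below riPSC in 5 of 6 and above it in 0, against 19.8% and 16.7% of all genes. The differences at D12 were -6.64 ± 0.09 for Nanog (limma, adjusted p = 3.79e-14), -6.80 ± 0.18 for Utf1 (8.98e-12) and -5.67 ± 0.19 for Sox2 (6.66e-11). They were smaller for Lin28a, -1.44 ± 0.09 (adjusted p = 3.02e-08), and Sall4, -1.32 ± 0.14 (2.60e-06).

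Pou5f1 was the exception, at -0.79 ± 0.09 (limma, adjusted p = 6.16e-06; 95% interval -0.99 to -0.60), below riPSC but under 2-fold. Whether it was called depended on the scaling: with each library scaled to its genes outside the mitochondrial genome it was -1.18 (adjusted p = 6.10e-07) and was called. This scaling divides by the FPKM sum of those genes, which was 639320 and 616418 in D12 and 469459 and 490073 in riPSC. It is therefore not a removal of mitochondrial fragments alone. Quantile normalization gave the smallest gap, -0.35 (adjusted p = 0.00519). Scaling to genes outside the mitochondrial genome moved the median of all genes between D12 and riPSC from -0.06 to -0.38, and the share of higher genes among all called ones from 45.8% to 32.8%.

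**Figure D3:**
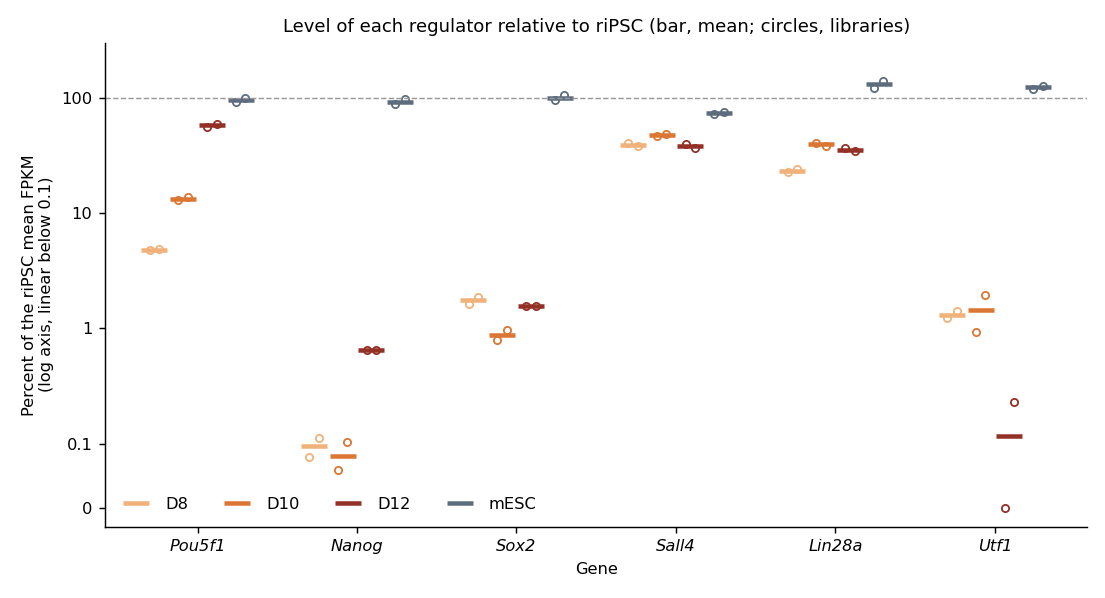
Level of each regulator in D8, D10, D12 and mESC as a percentage of its riPSC mean, on a log axis that is linear below 0.1; circles are libraries and bars the means. From D8 to D12 Pou5f1 climbs to 57.7%, Sall4 and Lin28a hold between 23.3% and 47.3%, and Nanog, Sox2 and Utf1 lie under 2%. In mESC the means lie between 73.5% (Sall4) and 131% (Lin28a).

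A ratio within a library does not move with its scaling, so the members were also set against Pou5f1 library by library. In riPSC Nanog was 29.9% and 28.3% of Pou5f1, and in mESC 28.0% and 28.3%. At D12 the same ratio was 0.334% and 0.316%. Sox2 was 25.7% and 26.5% of Pou5f1 in riPSC and 27.4% in both mESC libraries, but 9.52% ± 0.78 at D8, 1.73% ± 0.18 at D10 and 0.706% ± 0.019 at D12 (mean ± SD, n = 2). So the Sox2 to Pou5f1 ratio was lower in each later group of the course, as Pou5f1 rose and Sox2 did not. Sall4 went from 32.6% ± 1.54 at D8 to 2.66% ± 0.24 at D12, against 3.99% ± 0.19 in riPSC and 3.08% ± 0.15 in mESC. Lin28a went from 19.3% ± 0.53 to 2.43% ± 0.20, against 3.97% ± 0.05 in riPSC and 5.44% ± 0.17 in mESC. For all 5 genes the D12 ratios lay below those of both stem cell lines with no overlap. Utf1 was 3.67% ± 0.30 of Pou5f1 at D8, 0 and 0.0522% at D12 and 13.4% ± 0.91 in riPSC.

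**Figure D4:**
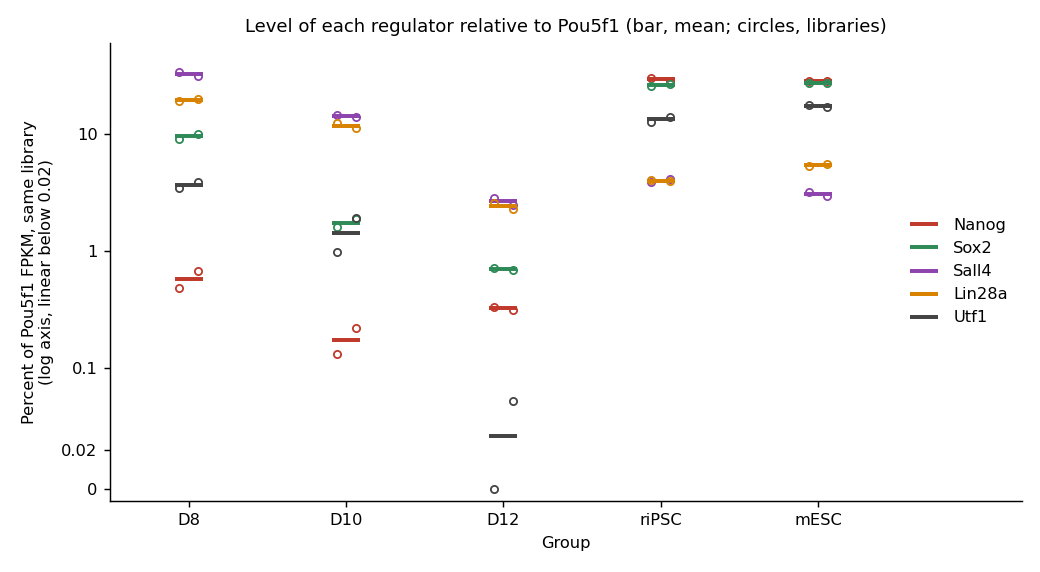
FPKM of the other 5 regulators as a percentage of Pou5f1 in the same library, for groups with Pou5f1 of at least 1 FPKM, on a log axis that is linear below 0.02; circles are libraries and bars the means. In riPSC and mESC the order is Nanog, Sox2, Utf1, then Sall4 and Lin28a, while from D8 to D12 Sall4 and Lin28a lie highest.

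The place of these genes among others with the same end points was described with a rule chosen after the values were seen. It took the 19 protein-coding genes with a mean of at least 100 FPKM in riPSC and under 1 FPKM in D0. The riPSC level thus sets both which genes enter and what they are divided by, so the shares are a description. Their median at D12 was 9.40% of riPSC, with Pou5f1 at 57.7%, Trap1a at 47.0% and Fbxo15 at 47.0%. Network genes under 100 FPKM in riPSC could lie higher, such as Nr0b1 at 97.2% and Dppa3 at 128%. In 5 of the 19 the D12 level was under 2% of riPSC: Fgf4, which was listed at 0, Utf1, Nanog, Sox2 and Sept1 at 1.69%. Sall4 and Lin28a were under 100 FPKM in riPSC and fell outside this rule.

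**Figure D5:**
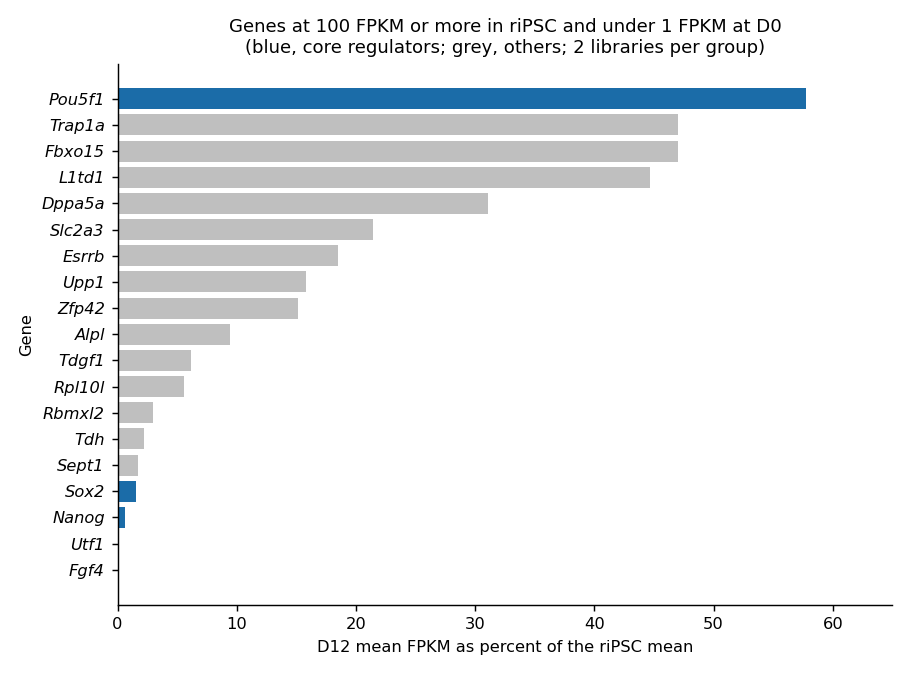
Mean FPKM at D12 as a percentage of the riPSC mean for the 19 protein-coding genes with at least 100 FPKM in riPSC and under 1 FPKM in D0, 2 libraries a group; core regulators are blue. Within these 19 the bar of Pou5f1 ends at 57.7%, and Sox2, Nanog and Utf1 are 3 of the 4 shortest, with Fgf4 at 0.

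Between the riPSC and mESC lines 0 of 6 members were called. Of all genes 1.84% were higher and 1.20% lower in riPSC, so this count does not set the members apart. Without the 2-fold limit 1 of 6 passed, beside 12.6% of all genes: Lin28a, at -0.38 ± 0.09 (limma, adjusted p = 0.0164). At an unadjusted p under 0.05 in limma there was 1 more, Sall4, at 0.43 ± 0.14 (adjusted p = 0.0606). The 95% intervals of the difference were -0.13 to 0.26 for Pou5f1, -0.08 to 0.31 for Nanog, -0.41 to 0.41 for Sox2 and -0.69 to 0.09 for Utf1. For each member these were the 2 highest groups of the 9. The ranges of their libraries overlapped for Pou5f1 and Sox2 and not for the other 4, where 59.5% of all genes did not overlap.

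In the order of means below the stem cells, some neighbours could not be separated by their libraries. D8 and D12 overlapped for Sall4, D8 and D10 for Nanog, and D8 and D10 for Utf1. For Sox2 no neighbours among the time points overlapped, and their order was D2, D8, D12, D6, D10, D4 and D0. With the remainder (3.93 FPKM) in place of D2 replicate 2, D2 overlapped D8. For Lin28a it was D10, D12 and D8, and for Pou5f1 the order of days from D12 down to D8, with no overlaps. Sall4 ran D10, D8, D12, D4, D6, D2 and D0.

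Over the 9 group means of log2(FPKM + 1) the members fell into trios. Pearson correlations were 0.985 between Pou5f1 and Lin28a, 0.942 between Pou5f1 and Sall4 and 0.955 between Lin28a and Sall4. Among Nanog, Sox2 and Utf1 they were 0.974 for Nanog and Utf1, 0.960 for Nanog and Sox2 and 0.951 for Sox2 and Utf1. Across the trios they ran from 0.657 to 0.799. These are descriptions over 9 points that share libraries, and the high stem cell values weigh on all of them.

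The genes most like each member were taken as the 3 highest of 8557 candidates by the same measure. For Pou5f1 they were Fbxo15 (0.998), Nr0b1 (0.997) and Xlr4a (0.997), and for Lin28a Esrrb (0.997), L1td1 (0.996) and Trap1a (0.995). For Nanog they were D1Pas1 (0.999), Hsf2bp (0.998) and Zfp600 (0.998). Utf1 had Alg13 (0.995), Mthfd1l (0.993) and Pecam1 (0.993), Sall4 had Wdr45b (0.994), Mtfp1 (0.987) and Parn (0.987), and Sox2 had Jam2 (0.983), Sept1 (0.970) and Mphosph8 (0.966). Ranked by Spearman correlation instead, 1 of the 3 was kept for Pou5f1 and for Sall4 and 0 for the others. Fbxo15, Nr0b1 and Esrrb belong to lists of related genes described next.

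Known targets of the OCT4 and SOX2 pair (Fgf4, Fbxo15, Lefty1, Zfp42, Tdgf1 and Spp1) did not move as one group. From D6 to D8, 3 of 6 rose and 1 fell, beside 15.1% and 11.3% of all genes, with a median of 1.38 beside 0.08 for all genes. Tdgf1, a Nodal co-receptor, went from 1.04 ± 0.22 to 51.9 ± 1.28 FPKM (limma, adjusted p = 4.69e-12) and Fbxo15, an F-box protein, from 0.139 ± 0.136 to 10.9 ± 0.0186 (6.42e-11). Zfp42, the zinc finger gene also called Rex1, went from 0.0224 ± 0.0317 to 1.86 ± 0.589 (adjusted p = 9.25e-07), and Lefty1, a Nodal antagonist, fell from 7.47 ± 0.22 to 1.42 ± 0.55 (4.16e-04). At D12 6 of 6 were below riPSC, beside 19.8% of all genes (median -2.30, all genes -0.06). Fgf4, the growth factor, was listed at 0 in all libraries of D8, D10 and D12 and stood at 105 and 106 FPKM in riPSC (adjusted p = 3.79e-14).

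Of 23 other network genes 22 were tested, Foxd3 not passing the filter. From D6 to D8, 11 rose and 0 fell, beside 15.1% and 11.3% of all genes (median 0.94, all genes 0.08), led by Dppa5a, from 0.189 ± 0.267 to 172 ± 0.766 FPKM, and Esrrb, an orphan nuclear receptor, from 0.336 ± 0.004 to 30.8 ± 3.23. From D8 to D10, the step at which Pou5f1 alone of the members rose, 0 of the 22 rose, beside 0.426% of all genes. From D10 to D12, 8 rose and 2 fell, beside 6.01% and 4.68% of all genes (median 0.16, all genes -0.06). Dppa3, a maternal factor, went from 0.407 ± 0.182 to 30.0 ± 1.83 FPKM (limma, adjusted p = 2.48e-11), Nr5a2, a nuclear receptor that binds Pou5f1 regulatory sequence, from 0.098 ± 0.062 to 6.32 ± 0.63 (8.77e-09) and Klf2 from 2.39 ± 0.36 to 11.6 ± 1.4 (0.00199). At D12 16 of 22 were called below riPSC and 0 above, beside 19.8% and 16.7% of all genes (median -1.67, all genes -0.06). Dppa3, Klf4 (87.0 against 70.6 FPKM) and Klf5 (83.6 against 74.4) had higher means at D12 than in riPSC without being called. Prdm14, a PR-domain factor, showed the widest gap at 0.199 and 0 FPKM against 14.02 and 15.2 (adjusted p = 7.69e-12).

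The axis around Lin28a (12 genes) was called in part at the step at which Lin28a appeared. From D6 to D8, 4 of 12 rose and 1 fell, beside 15.1% and 11.3% of all genes (median 0.65, all genes 0.08). Trim71 went from 0.46 ± 0.0561 to 3.24 ± 0.0666 FPKM (limma, adjusted p = 1.34e-07) and Igf2bp1, an RNA-binding protein, from 2.98 ± 0.36 to 8.97 ± 0.01 (2.88e-07). Hmga1, a chromatin protein, fell from 442 ± 7.04 to 178 ± 4.86 (0.0141). Hmga2, not called at this step, had means of 106 FPKM in D6, 68.4 in D8, 11.6 in D12 and 5.74 in riPSC. Lin28b, the paralog of Lin28a, was low throughout, at 0.704 and 0.419 FPKM in D8, 0.114 and 0.0804 in D12 and 1.97 and 2.79 in riPSC. From D10 to D12, 0 of 12 rose and 3 fell (Hmga1, Hmga2 and Igf2bp1), beside 6.01% and 4.68% of all genes (median -0.50, all genes -0.06). At D12 8 of 12 were below riPSC, beside 19.8% of all genes (median -1.22, all genes -0.06).

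The NuRD subunits, partners of Sall4, were taken over the same steps. From D6 to D8, 1 of 11 rose, beside 15.1% of all genes: Rbbp7, from 62.9 ± 0.558 to 257 ± 1.29 FPKM (limma, adjusted p = 1.92e-07), and 1 fell, beside 11.3%: Mbd3, from 92.6 ± 2.8 to 41.3 ± 1.47 (1.72e-05). The list's median was 0.19, and that of all genes 0.08. At D12 5 of 11 were below riPSC, beside 19.8% of all genes (median -0.81, all genes -0.06), Hdac1 and Rbbp4 among them.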

How the data were processed

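RNA was measured in 18 libraries of 9 groups, 2 a group, read at 150 bp. Per the submitters' processing notes, the authors used fastp 0.20.1, HISAT2 2.2.1 and StringTie 2.0 with mm10. The deposited values are FPKM for 55401 Ensembl genes, and the annotation release is not given in the sources used here. Symbols came from GENCODE on GRCm38, which matched 55141 identifiers.

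limma 3.58.1 in R 4.3.3 was run on log2(FPKM + 1) for the 16439 genes with at least 1 FPKM in at least 2 libraries, fitting a mean for each of the 9 groups to all 18 libraries, which left 9 residual degrees of freedom. Two-sided p-values were adjusted after Benjamini and Hochberg over all genes in each of 12 comparisons. The variance is shared by all groups, and groups listed at 0 add no spread to it, so standard errors of members that are at 0 in many groups may be too small. Named genes were the 6 members, up to 4 called genes with the largest differences from each list of related genes and comparison, and the 3 genes most like each member among those with a group mean of at least 10 FPKM. The members and lists were chosen with earlier results of these data known. Replicate numbers did not pair the libraries: over 36 pairs of groups, same-numbered deviations correlated between -0.23 and 0.27. Alternatives covered the pseudocount, filter, scaling, variance model, replicate block and each library left out. The procedure was tested on simulated data for D8 against D6 over 16439 genes, where 22 of 50 genes changed by a log2 difference of 1 were recovered, 47 of 50 at 2, 50 of 50 at 3 and 49 of 50 at 4, with 2 false calls. A difference of 1 is also the limit for a call, so recovery there was bound to be partial. The changed genes had a mean log2(FPKM + 1) over 2, with normal noise around a mean common to all groups. These rates therefore do not carry over to members listed at 0 in many groups.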

Additional observations from a re-analysis of the deposited data

How the results depend on the processing

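Over the alternatives, 1329 of 1356 log2 differences of members stayed called in the same direction or stayed uncalled, 13 newly passed the threshold and 14 no longer passed. 0 called differences changed sign, and 22 uncalled ones did, each of 0.286 or less in size. Counts of members called changed by over 1.5 times as follows. From D0 to D2 (1 as reported) the count was 2 with a pseudocount of 0.1 and 0 with only the libraries compared in the fit, which was also 0 from D2 to D4 (2 as reported). A pseudocount of 5, which compresses low values, gave 1 from D2 to D4, 0 of 2 from D4 to D6, 1 from D10 to D12 (3), 0 from D0 to D6 (1) and 1 from D8 to D12 (3). From D0 to D6 the count was 2 with a pseudocount of 0.1, with scaling to genes outside the mitochondrial genome and with no threshold on the difference. Without that threshold 3 were called from D8 to D10 (1 as reported) and 1 between riPSC and mESC (0). The replicate block changed no member's call, giving for example 4 from D6 to D8, and neither did crossed numbers, tried for the 3 comparisons among D0, D2, D4 and D6 whose correlation was under -0.1. Chosen after seeing the data, fits without both D2 libraries (60 differences), without D0, D2 and D4 (42) and with the remainder in place of the second D2 library (12) changed no call. The median of all genes against D0 moved from 0.24 to 0.05 at D2, 0.50 to 0.20 at D6 and 0.62 to 0.20 in riPSC with median-of-ratios scaling. Ranked by Spearman correlation, 1 of the 3 genes most like Pou5f1 was kept, 1 of 3 for Sall4 and 0 of 3 for the others. With 2 libraries a group, levels near 1 step of depth are not separable from 0.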

Other observations

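Genes of the same families as the members, Lin28b included, were followed too (13 genes, 10 tested). Pou2f2, Pou3f2 and Sox1 did not pass the filter. From D6 to D8, while Sox2 itself was not called, 4 of 10 rose and 0 fell, beside 15.1% and 11.3% of all genes: Sox21, from 0.401 ± 0.0688 to 7.93 ± 0.638 FPKM (limma, adjusted p = 8.20e-09), Sall1, from 0.523 ± 0.118 to 5.22 ± 0.627 (2.28e-08), Sox3, from 0.466 ± 0.157 to 4.81 ± 0.0282 (6.29e-08), and Pou2f1, from 0.496 ± 0.0284 to 2.14 ± 0.467 (1.89e-05). Sox3, a close relative of Sox2, was 4.83 and 4.79 FPKM at D8 and 0.841 and 0.884 in riPSC, and was above riPSC at D8 (adjusted p = 2.34e-07). At D8 Sox3 and Sox2 stood at similar FPKM, and in riPSC Sox2 was over 200 and Sox3 under 1.

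Two-cell-like markers, genes of the early cleavage embryo (7 in the files), were listed at 0 in both D8 libraries and summed to 25.7 to 28.1 FPKM in D12, beside 3.09 to 3.62 in riPSC and 0.927 to 1.24 in mESC. Of the 5 tested, 5 were called higher in D12 than in D10, the step at which Nanog rose and Utf1 fell. Zscan4c, Zscan4d, Tcstv3 and Usp17lc passed the filter only with their D12 values. The count therefore cannot be weighed against the 6.01% of all genes that rose. Germline markers (6 genes) summed to 2.35 to 2.63 FPKM in D10, 18.5 to 23.8 in D12 and 37.5 to 39.99 in riPSC, with Nanos3 at 0 in D12. Of the 6, 2 were at 1 FPKM or more in both D12 libraries, and 6 in both riPSC libraries. From D10 to D12, 2 of 6 rose, beside 6.01% of all genes. At D12, 5 of 6 were below riPSC and 1 above, beside 19.8% and 16.7% of all genes. Myeloid markers (8 genes) summed to 99.4 to 110 FPKM in D0 and 4.07 to 4.27 in D12. Dppa3 was 23.3 and 23.7 FPKM in riPSC and 0.907 and 1.13 in mESC, the only network gene called between the lines (limma, adjusted p = 4.35e-10), and it exceeded both at D12, at 31.3 and 28.7.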
